A study of Mus musculus with 6 samples.

Results

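The genes described here act in G2 and mitosis. They were taken from a list of 60 genes sorted by textbook function into 11 roles, from mitotic entry to cytokinesis. The list was chosen with earlier results of these data known, so counts over it are descriptive. Of the 60 genes, 58 were measured, among 22180 genes in all. *Ccnb1* and *Ncapg* were not analysed here because no probe set carried either symbol alone.

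Muscle satellite cells (SCs), the stem cells of skeletal muscle, were compared between 3 *Slug*-/- samples and 3 *Slug*+/+ samples. All 6 came from adult C57BL6 males, and SCs were sorted from resting hindlimb muscle and lysed for RNA with no culture step. By its methods, the study took males a few weeks old as adults throughout. The sort kept cells negative for CD45, CD11b, CD31 and Sca1 and positive for CD34 and integrin-α7. *Slug*-/- mice lacked the gene in every tissue and not in SCs alone, and no source used here says whether a sample held cells of 1 animal or several. Each sample was hybridised to 1 Affymetrix Mouse Gene 2.0 ST array, and values are log2 expression values.

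Most SCs of uninjured muscle rest outside the cell cycle and divide only after activation. Genes of G2 and mitosis are transcribed late in the cell cycle. In resting cells they are held silent by the DREAM complex, which binds an element named the cell cycle genes homology region (CHR), and in cycling cells they are driven by B-MYB with the MuvB core, by FOXM1 and by NF-Y, which binds CCAAT boxes. Slug, encoded by *Snai2*, is a zinc-finger repressor of the Snail family that binds E-boxes.

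*Snai2* had log2 values of 5.15, 5.10 and 4.59 in *Slug*-/- SCs, against 6.25, 6.66 and 6.53 in *Slug*+/+ SCs. Its groups did not overlap, and they differed by -1.53 (standard error 0.22, adjusted p = 0.435 from limma). This checks the labels only if its probes fall within the removed sequence, whose extent is not given in the sources here. Marker genes of SCs were above background on every array for 12 of 12 genes, with a mean level of 8.32 to 8.52 in *Slug*-/- and 8.17 to 8.59 in *Slug*+/+ SCs. Background was set at 3.05, the 95th percentile of the mean levels of 1105 olfactory receptor genes, a family largely silent outside the nose. The medians of the 6 arrays lay between 2.87 and 2.96, and pairs of arrays correlated at 0.946 to 0.966 over all genes.

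Genes of G2 and mitosis were mostly higher in *Slug*-/- SCs. Of the 58 measured genes, 47 (81.0%) had a positive difference, *Slug*-/- minus *Slug*+/+, against 48.4% of all genes and 54.0% of genes with a mean above background. Their median difference was 0.41 on the log2 scale, against -0.01 over all genes. In bulk SCs, more cells that express a gene and more of its RNA per cell cannot be told apart. Called genes were those that differed more than 2-fold with p below 0.05 in limma before adjustment, the thresholds of the study. By this call, 7 of the 58 were higher in *Slug*-/- SCs (12.1%), against 0.586% of all genes. Of the 58, 0 were called lower, against 0.311% of all genes. At an unadjusted p of 0.05 alone, 18 were higher, against a background of 3.31%, and 1 was lower, against 2.49%. All 3 *Slug*-/- arrays lay above all 3 *Slug*+/+ arrays for 23 of the 58 genes, against 5.24% of all genes, and below them for 1, against 5.4%. Of these 23, 13 had a mean at or below background. Among the 28 with a mean above it, 10 lay apart in this way (35.7%), against 6.88% of all genes with such a mean. Of those 28, 6 had a *Slug*+/+ mean at or under background. After Benjamini-Hochberg adjustment over the 22180 genes, limma called 0 genes (0%), while 1286 had an unadjusted p under 0.05. The smallest adjusted p among the 58 was 0.493.

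The genes sat low on these arrays. The mean over all 6 arrays was above background for 28 of the 58. Every array was above background for 15 genes and none for another 15, namely *Cdc25c*, *Nek2*, *Melk*, *Bub1*, *Ttk*, *Cenpk*, *Ndc80*, *Spc25*, *Kif2c*, *Kif4*, *Kif14*, *Kif15*, *Hmmr*, *Dlgap5* and *Anln*. A difference of these 15, near 0 or not, lies between values under background. For 17 further genes some *Slug*-/- array was above background but no *Slug*+/+ array was, so that the size of their difference is not measured. Where no *Slug*+/+ array was above background, a bound was taken by setting those arrays to the background level, and it exceeded 1-fold for 9 genes. Besides 4 called genes given below, these were *Cdca3* (at least 1.12-fold), *Ccna2* (1.05-fold), *Ube2c* and *Kif11* (1.03-fold each) and *Cdca8* (1.01-fold). The genes above background numbered 39, 30 and 34 of 58 on the *Slug*-/- arrays (67.2%, 51.7% and 58.6%), against 21, 22 and 22 on the *Slug*+/+ arrays (36.2%, 37.9% and 37.9%). The groups did not overlap in this count. Over all genes, the share above background was 51.9% to 53.4% for *Slug*-/- and 52.6% to 54.5% for *Slug*+/+ arrays.

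**Figure D1:**
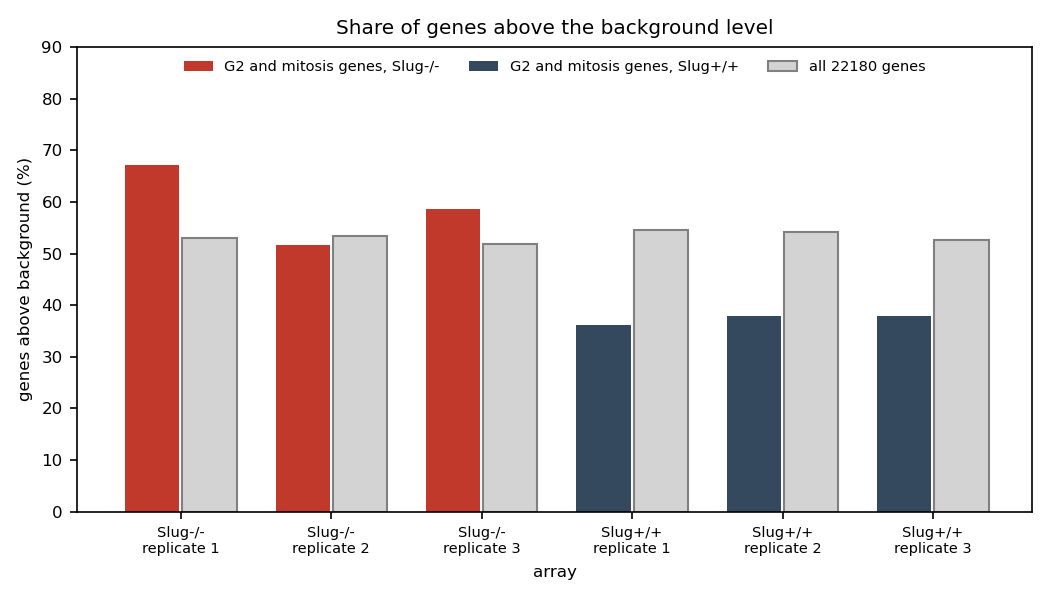
Share of genes above the background level (vertical axis, percent) on each array (horizontal axis), for the 58 G2 and mitosis genes in colour and for all 22180 genes in grey. The coloured bars stand at 51.7% to 67.2% on *Slug*-/- arrays and at 36.2% to 37.9% on *Slug*+/+ arrays, while the grey bars lie between 51.9% and 54.5%.

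The 7 called genes were *Mki67*, *Cdk1*, *Top2a*, *Aspm*, *Kif23*, *Cdc20* and *Tpx2*. *Mki67*, which coats mitotic chromosomes and marks cycling cells, had values of 5.92, 6.05 and 6.34 in *Slug*-/- SCs, against 2.96, 4.58 and 3.36 in *Slug*+/+ SCs. The 3 *Slug*-/- values were close together and all above the highest *Slug*+/+ value, that of replicate 2. The difference was 2.47, or 5.54-fold (standard error 0.40, adjusted p = 0.493 from limma). *Cdk1*, the master kinase of mitotic entry, had values of 5.69, 4.17 and 4.87 in *Slug*-/- SCs, against 2.40, 2.89 and 2.26 in *Slug*+/+ SCs. Every *Slug*+/+ array was under background and every *Slug*-/- array over it. Its difference was 2.39 (standard error 0.38, adjusted p = 0.493 from limma). By the bound it was at least 3.62-fold higher.

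*Top2a*, the topoisomerase that untangles sister DNAs before they part, had values of 3.58, 3.21 and 4.99 in *Slug*-/- SCs, against 2.56, 2.39 and 2.15 in *Slug*+/+ SCs. *Slug*-/- replicate 3 stood well above the other two, and the groups did not overlap. The difference was 1.56 (standard error 0.43, adjusted p = 0.792 from limma), and by the bound it was at least 1.83-fold higher. *Aspm*, which focuses microtubules at spindle poles, had values of 4.07, 2.73 and 3.93 in *Slug*-/- SCs, against 2.43, 2.40 and 1.84 in *Slug*+/+ SCs. Only replicates 1 and 3 of *Slug*-/- were above background. The difference was 1.35 (standard error 0.37, adjusted p = 0.792 from limma), or at least 1.44-fold by the bound. *Kif23*, a kinesin of the central spindle needed for cytokinesis, had values of 4.14, 3.22 and 5.03 in *Slug*-/- SCs, against 2.98, 2.96 and 2.91 in *Slug*+/+ SCs. Its *Slug*+/+ arrays were nearly equal and just under background, while its *Slug*-/- arrays were spread widely. The difference was 1.18 (standard error 0.41, adjusted p = 0.823 from limma), or at least 2.11-fold by the bound.

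*Cdc20*, which activates the anaphase-promoting complex, had values of 4.04, 3.40 and 4.97 in *Slug*-/- SCs, against 2.85, 3.06 and 3.32 in *Slug*+/+ SCs. The lowest *Slug*-/- array, replicate 2, was only just above the highest *Slug*+/+ array. The difference was 1.06, or 2.08-fold (standard error 0.38, adjusted p = 0.823 from limma). *Tpx2*, which targets Aurora A to spindle microtubules, had values of 4.39, 3.07 and 4.45 in *Slug*-/- SCs, against 2.85, 3.13 and 2.92 in *Slug*+/+ SCs. Its groups overlapped, since *Slug*-/- replicate 2 lay below *Slug*+/+ replicate 2. The difference was 1.001, or 2.001-fold (standard error 0.37, adjusted p = 0.825 from limma). Leaving out each array in turn, *Mki67*, *Cdk1*, *Top2a* and *Aspm* stayed past the call in all 6 fits. *Cdc20* lost it without *Slug*-/- replicate 3 or without *Slug*+/+ replicate 1 or 2, with differences of 0.64, 0.95 and 1.05. *Kif23* lost it without *Slug*-/- replicate 3 (0.73) or *Slug*+/+ replicate 3 (1.16). *Tpx2* lost it without *Slug*-/- replicate 1 (0.79) or 3 (0.76) and without *Slug*+/+ replicate 1 (0.94) or 3 (0.98). With values under background raised to it, *Mki67* and *Cdk1* alone of the 7 stayed past the call.

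**Figure D2:**
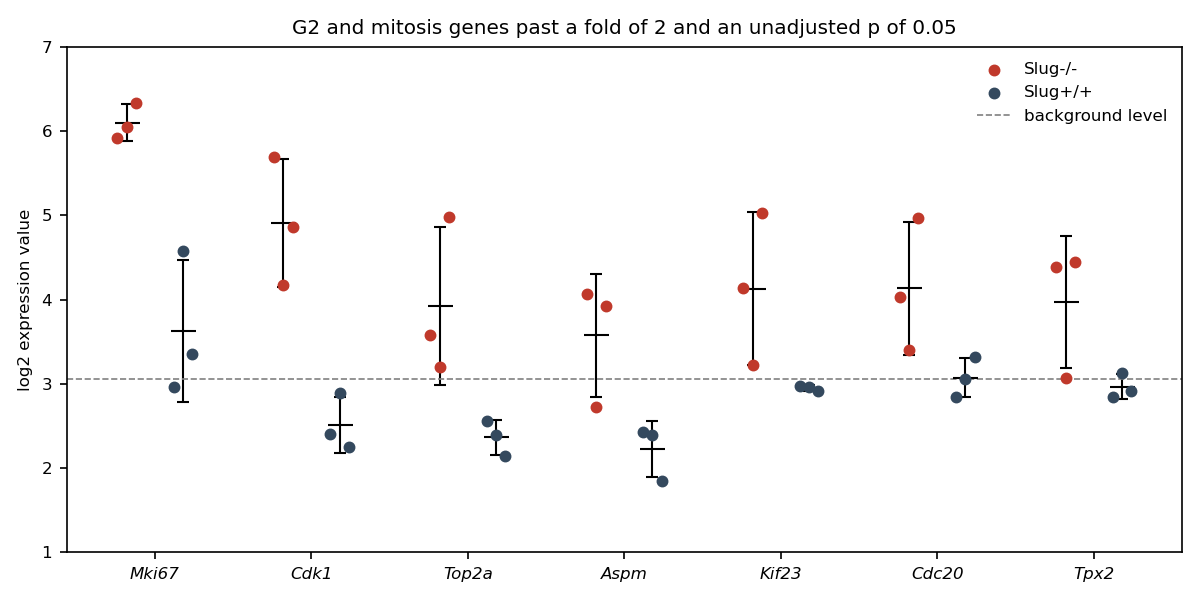
Log2 expression values (vertical axis) of the 7 called genes (horizontal axis) on the 3 *Slug*-/- arrays in red and the 3 *Slug*+/+ arrays in blue, with the mean and SD as black bars and the background level of 3.05 as a dashed line. *Mki67* lies at 5.92 to 6.34 in *Slug*-/- SCs, and *Cdk1* is under the line on every *Slug*+/+ array.

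Since these genes are known to share promoter elements, the promoters of the called genes were read for them. RefSeq promoters on GRCm38.p6, from 250 bases before to 50 after the start of transcription, were found for 50 of the 60 listed genes, 55 promoters in all. Those not matched were *Ccna2*, *Cdc25c*, *Aurkb*, *Incenp*, *Spc24*, *Kif20a*, *Tpx2*, *Dlgap5*, *Smc4* and *Foxm1*. The motifs searched on both strands were TTTGAA and TTCGAA, the core of the CHR, CCAAT, and CAGGTG, the E-box that Snail proteins bind. None of the 4 motifs contains another, matches of 2 motifs may share bases, and TTCGAA reads the same on both strands. The 4 called genes with the largest differences are shown, 5′ to 3′ on the strand of the gene, with each match in capitals as it reads on that strand, so that ATTGG is CCAAT and TTCAAA is TTTGAA on the other strand.
*Mki67* (chr7:135716330-135716629, minus strand): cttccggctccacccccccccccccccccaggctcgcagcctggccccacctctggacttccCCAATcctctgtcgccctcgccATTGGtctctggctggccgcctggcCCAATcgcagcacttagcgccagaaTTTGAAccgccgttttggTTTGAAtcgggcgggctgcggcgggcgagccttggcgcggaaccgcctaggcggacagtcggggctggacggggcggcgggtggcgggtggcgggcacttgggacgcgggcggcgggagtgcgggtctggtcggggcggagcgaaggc
*Cdk1* (chr10:69352863-69353162, minus strand): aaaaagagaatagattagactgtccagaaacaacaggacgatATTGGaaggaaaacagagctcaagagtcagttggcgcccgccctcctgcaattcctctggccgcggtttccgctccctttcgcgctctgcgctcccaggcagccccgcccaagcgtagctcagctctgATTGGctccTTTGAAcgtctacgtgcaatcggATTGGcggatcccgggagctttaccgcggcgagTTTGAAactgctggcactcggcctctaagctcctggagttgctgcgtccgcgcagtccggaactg
*Top2a* (chr11:99024140-99024439, minus strand): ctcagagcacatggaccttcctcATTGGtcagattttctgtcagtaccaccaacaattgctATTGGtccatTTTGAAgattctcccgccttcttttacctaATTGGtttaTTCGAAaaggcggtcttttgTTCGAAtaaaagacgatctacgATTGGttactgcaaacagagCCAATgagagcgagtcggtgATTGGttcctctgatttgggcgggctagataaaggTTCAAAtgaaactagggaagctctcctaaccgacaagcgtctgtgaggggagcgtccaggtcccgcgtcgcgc
*Aspm* (chr1:139454523-139454822, plus strand): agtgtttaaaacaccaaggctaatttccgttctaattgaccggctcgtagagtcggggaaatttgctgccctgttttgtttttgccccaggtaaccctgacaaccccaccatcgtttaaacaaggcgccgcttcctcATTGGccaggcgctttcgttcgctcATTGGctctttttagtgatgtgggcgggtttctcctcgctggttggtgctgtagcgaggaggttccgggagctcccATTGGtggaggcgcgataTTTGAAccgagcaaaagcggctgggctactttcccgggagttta

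*Mki67* held 2 TTTGAA, with first bases at -116 and -98 from the start of transcription, downstream of 3 CCAAT. *Cdk1* held 2 TTTGAA, at -71 and -15, each of them downstream of a CCAAT. *Top2a* held 2 TTTGAA, 2 TTCGAA and 6 CCAAT. *Aspm* held 1 TTTGAA, at base 7 of the transcript, and 3 CCAAT before it. *Kif23* held 1 TTTGAA, at base 3, and 1 CCAAT, and *Cdc20* held 1 TTTGAA between 2 CCAAT. All 6 called genes with a promoter held both a CHR core and a CCAAT, and 0 of the 6 held CAGGTG.

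Promoters of the whole group were alike in this. A CHR core lay in 41 of 55 (74.5%), against 19.2% of the 32851 promoters of all genes. CCAAT lay in 42 of 55 (76.4%), against 37.4%, and at least 2 of them in 49.1%, against 11.7%. Both elements together lay in 65.5%, against 7.53%. CAGGTG lay in 6 of 55 (10.9%), against 20.2% of all promoters. The 5 genes with these 6 promoters differed by 0.94 (*Kif18a*), 0.87 (*Nusap1*), 0.68 (*Kif20b*), 0.38 (*Cenpk*) and 0.05 (*Ect2*). The promoters of 1 gene can overlap, so the 55 are not independent. Genes with both elements were also found among those with differences near 0, such as *Cenpa* (0.01) and *Spc25* (-0.07), and *Birc5* (0.76) and *Nusap1* (0.87) held neither in this window. None of the 4 motifs lay in the promoters of *Pttg1* (-0.50) and *Mybl2* (-0.40), nor in those of *Birc5*, *Nuf2* (0.67), *Mad2l1* (0.65) and *Melk* (0.43). A match describes letters only, and binding was not measured here.

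Entry into mitosis needs cyclins A and B with CDK1, and CDC25 phosphatases that remove the brake on it. Of 6 measured genes of this role, 5 were positive, with a median of 0.62, and 1, *Cdk1*, was called. Beside the counts by role stand the shares over all genes. Of all genes, 0.586% were called higher, 3.31% were higher at an unadjusted limma p of 0.05, and 5.24% were higher without overlap. *Ccna2*, cyclin A2, had values of 3.16, 3.003 and 3.18 in *Slug*-/- SCs, against 2.56, 2.58 and 2.21 in *Slug*+/+ SCs. Every value lay near or under background. The groups did not overlap, and they differed by 0.67 (standard error 0.18, adjusted p = 0.792 from limma). *Cdc25b* differed by 0.81, with no overlap between groups. *Ccnb2*, cyclin B2, differed by 0.56 and *Cdca3*, which helps degrade the mitotic brake WEE1, by 0.35. *Cdc25c* was at -0.01, under background on all 6 arrays.

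Of the 4 mitotic kinases all were positive, with a median of 0.54, and by limma 0 were called and 1 passed an unadjusted p of 0.05. *Aurka*, the kinase of centrosomes and spindle poles, had values of 3.80, 3.55 and 3.80 in *Slug*-/- SCs, against 2.76, 3.13 and 3.14 in *Slug*+/+ SCs. The groups did not overlap, and the difference was 0.71 (standard error 0.19, adjusted p = 0.792 from limma). *Plk1*, which acts from mitotic entry to cytokinesis, had values of 3.43, 3.50 and 4.94 in *Slug*-/- SCs, against 3.50, 3.29 and 3.15 in *Slug*+/+ SCs. *Slug*-/- replicate 3 stood high, and the other two *Slug*-/- arrays lay within or level with the top of the *Slug*+/+ range. The difference was 0.65 (standard error 0.40, adjusted p = 0.907 from limma), and 0.15 without *Slug*-/- replicate 3. *Melk* differed by 0.43 and *Nek2* by 0.09, both under background on all arrays.

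The chromosomal passenger complex corrects faulty attachments of chromosomes to the spindle. Its 4 genes were all positive, with a median of 0.40, and by limma 0 were called and 1 passed an unadjusted p of 0.05. *Birc5*, which encodes survivin, had values of 2.75, 2.09 and 3.32 in *Slug*-/- SCs, against 1.99, 1.82 and 2.06 in *Slug*+/+ SCs. The groups did not overlap, yet only *Slug*-/- replicate 3 was above background (difference 0.76, standard error 0.30, adjusted p = 0.850 from limma). *Aurkb*, the kinase of the complex, had values of 3.99, 3.93 and 3.87 in *Slug*-/- SCs, against 3.83, 3.88 and 3.29 in *Slug*+/+ SCs. Its groups overlapped narrowly, and they differed by 0.26 (standard error 0.21, adjusted p = 0.921 from limma). *Cdca8*, borealin, differed by 0.53 and *Incenp*, the scaffold, by 0.18.

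The spindle assembly checkpoint holds back anaphase until every chromosome is attached. Of its 5 genes, 4 were positive with a median of 0.14. By limma 0 were called and 1 passed an unadjusted p of 0.05, and the genotypes overlapped in all 5. *Bub3* had values of 6.24, 6.64 and 6.84 in *Slug*-/- SCs, against 5.99, 5.61 and 6.24 in *Slug*+/+ SCs, differing by 0.63 (standard error 0.24, adjusted p = 0.826 from limma). Its lowest *Slug*-/- value fell just below its highest *Slug*+/+ value. *Mad2l1* differed by 0.65, with only *Slug*-/- replicate 1 above background, and *Bub1b* by 0.07. *Ttk* (0.14) and *Bub1* (-0.06) were under background on all 6 arrays.

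Genes of anaphase onset were divided, with 2 of 4 positive and a median of 0.31. *Cdc20* was called higher, and *Ube2c*, the ubiquitin-conjugating enzyme of the anaphase-promoting complex, had values of 2.55, 3.40 and 3.35 in *Slug*-/- SCs, against 2.45, 2.41 and 2.11 in *Slug*+/+ SCs. Its groups did not overlap, but every *Slug*+/+ array and *Slug*-/- replicate 1 were under background. The difference was 0.78 (standard error 0.26, adjusted p = 0.823 from limma), or at least 1.03-fold by the bound. *Pttg1*, securin, which keeps separase inactive, is given in full because it alone of the 58 was lower at an unadjusted p of 0.05, and it was chosen after its values were seen. It had values of 5.18, 5.31 and 4.93 in *Slug*-/- SCs, against 5.62, 5.51 and 5.80 in *Slug*+/+ SCs. Every *Slug*-/- array lay under every *Slug*+/+ array, and they differed by -0.50 (standard error 0.18, adjusted p = 0.825 from limma). *Espl1*, separase itself, was at -0.16.

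Centromere and kinetochore genes had the smallest median of the 11 roles, 0.13 over 8 genes. Of these, 6 were positive, and by limma 0 were called and 0 passed an unadjusted p of 0.05. *Cenpk*, a subunit of the inner kinetochore, had values of 2.06, 1.69 and 1.72 in *Slug*-/- SCs, against 1.46, 1.39 and 1.48 in *Slug*+/+ SCs. Its groups did not overlap, but all 6 values were under background (difference 0.38, standard error 0.18, adjusted p = 0.877 from limma). *Nuf2* of the outer NDC80 complex differed by 0.67, with no *Slug*+/+ array above background. Its partner *Spc24* was at 0.21, and its partners *Spc25* (-0.07) and *Ndc80* (-0.12) were under background throughout. *Spc24*, named after its values were seen, had values of 3.80, 5.32 and 3.86 in *Slug*-/- SCs, against 3.54, 5.07 and 3.73 in *Slug*+/+ SCs. Replicate 2 was the high array in both genotypes for this gene. *Cenpf* (0.15), *Cenpe* (0.11) and *Cenpa* (0.01), the histone H3 of centromeres, differed little.

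Kinesins are the motors that move and align chromosomes along microtubules. Of 11, 9 were positive with a median of 0.65. The groups did not overlap for 6 (54.5%, against 5.24% of all genes), and *Kif23* was called (9.09%, against 0.586%). *Kif20b*, a motor of late mitosis, had values of 2.73, 3.10 and 2.40 in *Slug*-/- SCs, against 2.23, 1.81 and 2.16 in *Slug*+/+ SCs. The groups were apart, but only *Slug*-/- replicate 2 was above background (difference 0.68, standard error 0.23, adjusted p = 0.823 from limma). *Kif18b* differed by 0.65, above background on all arrays and with no overlap. *Kif11*, which pushes spindle poles apart, differed by 0.75 with no overlap, but with every *Slug*+/+ array and *Slug*-/- replicate 2 under background, or at least 1.03-fold by the bound. *Kif18a*, given in full after its values were seen, differed by 0.94 with a standard error of 0.55. Its value was 4.09 on *Slug*-/- replicate 1 and 1.92 and 1.95 on the other two *Slug*-/- arrays, against 1.90, 1.61 and 1.63 on *Slug*+/+ arrays, and without *Slug*-/- replicate 1 the difference was 0.22. *Kif22* (0.69), *Kif20a* (0.48), *Kif15* (0.25) and *Kif2c* (0.08) were positive, and *Kif14* (-0.01) and *Kif4* (-0.14) were not.

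Factors that build the spindle had the largest median of the 11 roles, 0.87 over 5 genes. All 5 were positive and 2, *Aspm* and *Tpx2*, were called. *Nusap1*, which bundles spindle microtubules, differed by 0.87, with no overlap between groups. *Dlgap5* differed by 0.33 and *Hmmr* by 0.12. The 4 genes of cytokinesis were all positive, with a median of 0.24, and by limma 0 were called and 1 passed an unadjusted p of 0.05. *Racgap1*, the partner of KIF23 in the centralspindlin complex, had values of 4.61, 3.74 and 4.13 in *Slug*-/- SCs, against 3.33, 3.46 and 3.35 in *Slug*+/+ SCs. All 6 arrays were above background. The groups did not overlap, and they differed by 0.78 (standard error 0.24, adjusted p = 0.823 from limma). *Prc1* (0.29), *Anln* (0.19) and *Ect2* (0.05) followed.

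Among genes of chromosome structure, *Mki67* and *Top2a* were called, and the other 3 measured were subunits of condensin, which compacts chromosomes. *Ncapd2* differed by 0.52, while the 2 core subunits *Smc2* (-0.18) and *Smc4* (-0.08) were not higher. Without *Slug*-/- replicate 2, *Smc2* was at 0.08 and *Smc4* at 0.30. Without *Slug*-/- replicate 3, they were at -0.41 and -0.46. *Foxm1*, which drives many genes of this group, had values of 3.67, 4.28 and 5.09 in *Slug*-/- SCs, against 4.06, 2.96 and 3.68 in *Slug*+/+ SCs. The groups overlapped, and the difference was 0.78 (standard error 0.41, adjusted p = 0.897 from limma). *Mybl2*, which encodes B-MYB, was at -0.40 on its brighter probe set and at 0.02 on the second, and was the one gene of the group with more than 1 probe set.

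**Figure D3:**
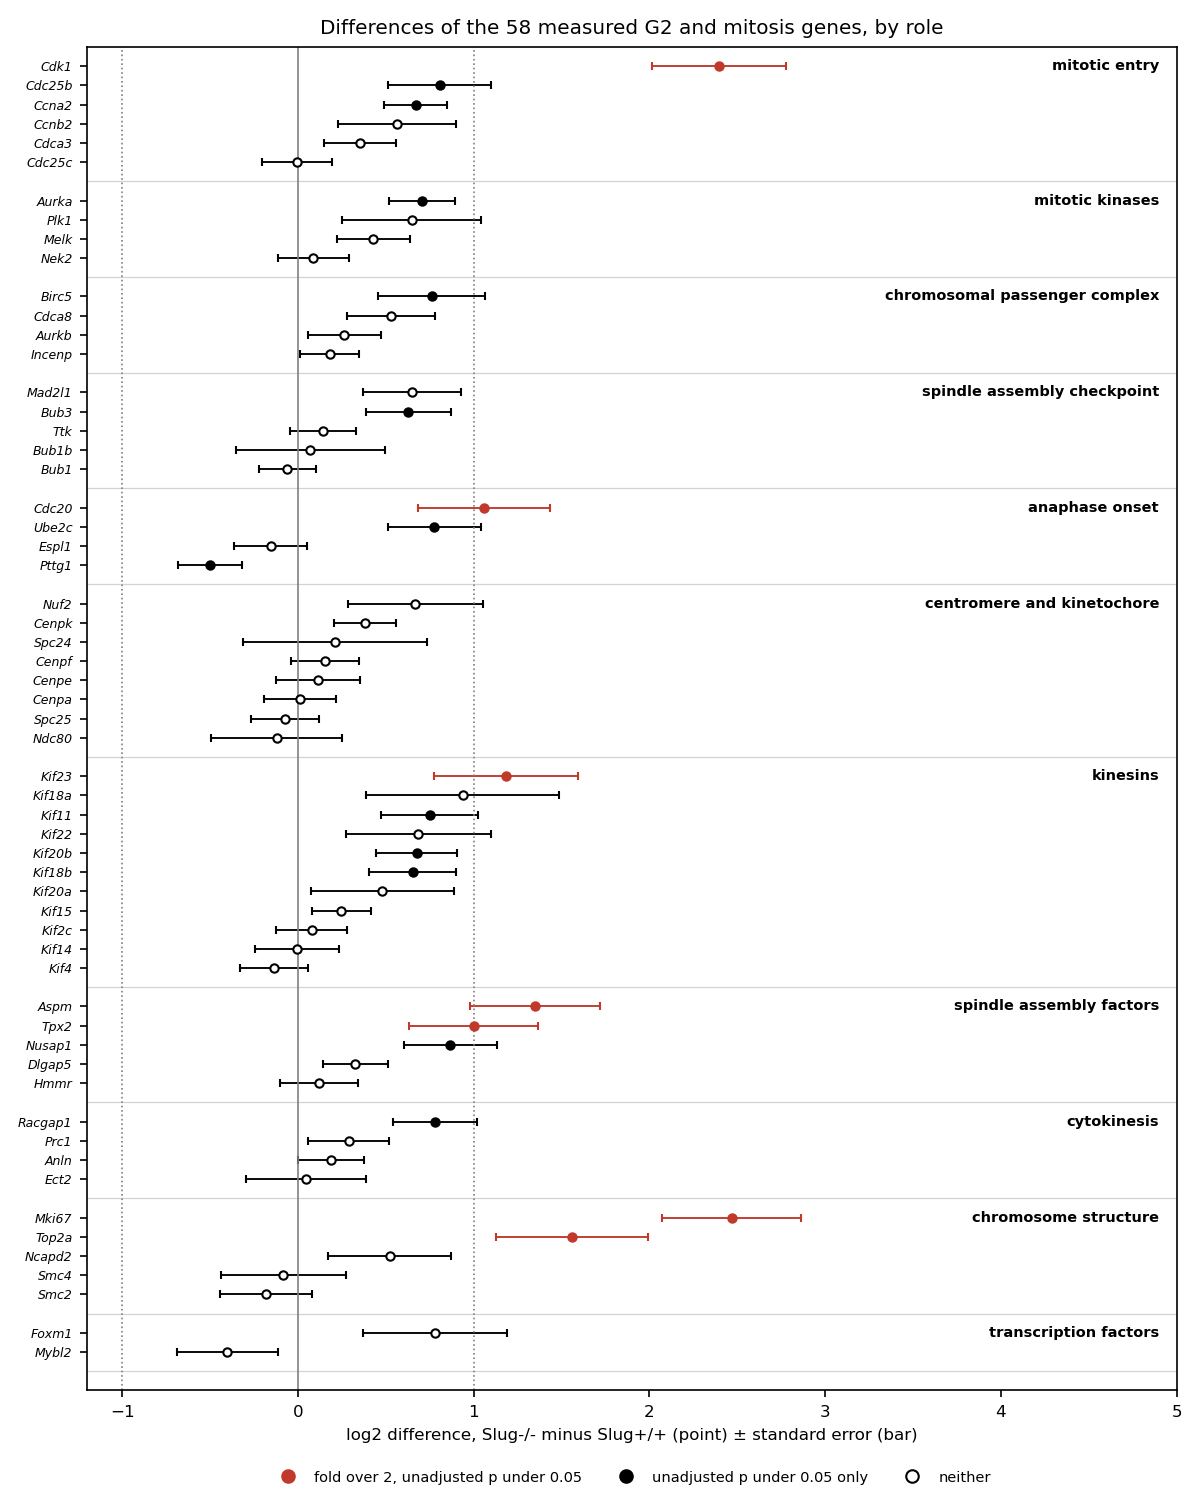
Log2 difference, *Slug*-/- minus *Slug*+/+ (horizontal axis), of each of the 58 measured genes (vertical axis, by role), with bars of 1 standard error from limma. Red points are the 7 called genes, filled black points passed an unadjusted p of 0.05 without a fold of 2, and dotted lines mark a fold of 2 either way. Points lie right of 0 for 47 genes, and *Pttg1* is the filled point on the left.

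The 3 *Slug*-/- arrays were not alike in these genes. The mean level of the 58 was 3.46, 3.21 and 3.54 in *Slug*-/- SCs, against 2.95, 2.97 and 2.86 in *Slug*+/+ SCs. Replicate 2 was the lowest of the 3 *Slug*-/- arrays for 31 of the 58 genes and replicate 3 the highest for 30. Among the 28 genes with a mean above background, replicate 2 was the lowest for 13 and replicate 3 the highest for 15. Over all genes with a mean above background, these shares were 36.1% and 37.1%. Of all 6 arrays, *Slug*-/- replicate 1 was the highest for 17 genes, replicate 2 for 7 and replicate 3 for 25, against 4, 3 and 2 genes for the *Slug*+/+ arrays. Over the 58 genes, which share probes and normalization between arrays, pairs of *Slug*-/- arrays correlated at 0.791 to 0.841 and pairs of *Slug*+/+ arrays at 0.872 to 0.935. Pairs across genotypes correlated at 0.693 to 0.886, and the highest of these was *Slug*-/- replicate 2 with *Slug*+/+ replicate 2. By role, the mean level on every *Slug*-/- array was above that on every *Slug*+/+ array for 8 of the 11 roles. The exceptions were the kinetochore genes, with 2.69 to 2.93 in *Slug*-/- and 2.54 to 2.74 in *Slug*+/+ SCs, the genes of cytokinesis and the transcription factors. Some of the 8 were barely apart. The lowest *Slug*-/- and highest *Slug*+/+ means were 3.38 and 3.36 for the spindle assembly checkpoint. They were 3.84 and 3.78 for anaphase onset, and 4.35 and 4.28 for chromosome structure. No share over other groups of genes was taken beside this count.

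**Figure D4:**
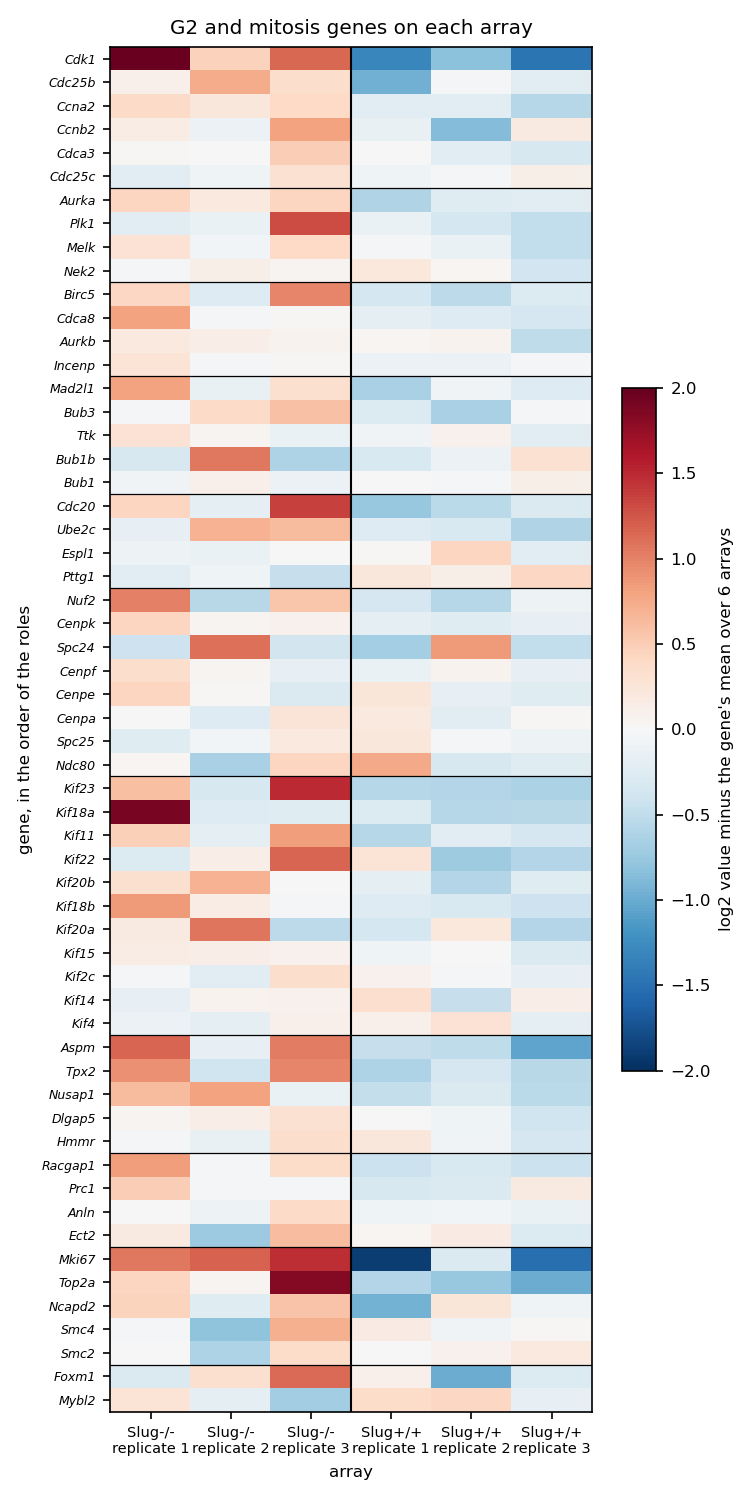
Log2 value minus the mean of the gene over the 6 arrays (colour, red above and blue below) for the 58 genes (vertical axis, in the order of the roles, parted by lines) on each array (horizontal axis, *Slug*-/- left of *Slug*+/+). The *Slug*-/- side is mostly red, least so in replicate 2, and *Pttg1* and *Mybl2* run mostly the other way.

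Without *Mki67* and *Cdk1*, the remaining 56 genes had 45 positive differences, a median of 0.37 and 5 called higher (8.93%, against 0.586% of all genes). Further genes of the same machinery were measured in 7 wider lists that hold none of the 58, with 136 of 143 genes measured. Of these, 86 (63.2%) were positive, against 48.4% of all genes and 54.0% of genes with a mean above background, and the median was 0.13. By the call 5 were higher (3.68%), against 0.586% of all genes, and 1 was lower, against 0.311%. At an unadjusted p of 0.05 alone, 13 were higher (9.56%), against 3.31%, and 1 was lower, against 2.49%. The anaphase-promoting complex had 10 of 17 positive (median 0.14) with 0 calls, cohesin 9 of 13 (0.12) with 0 calls, further condensin subunits 2 of 4 (0.10) with 0 calls, and the DREAM and MuvB genes 10 of 14 (0.24) with 0 calls. G2 checkpoint and entry kinases had 15 of 22 positive (0.09) with 0 calls. Further spindle and cytokinesis genes had 18 of 34 positive (0.09) and 4 called higher (11.8%). Further centromere and kinetochore genes had 22 of 32 positive (0.15), with 1 called higher and 1 lower.

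*Fam83d*, which brings a kinase to the spindle, had values of 4.22, 2.66 and 4.13 in *Slug*-/- SCs, against 1.63, 2.40 and 2.25 in *Slug*+/+ SCs, a difference of 1.58. As with *Aspm* and *Tpx2*, its *Slug*-/- replicate 2 was the low one. For *Fam83d* that array was under background, as was every *Slug*+/+ array, and the bound was at least 1.54-fold. *Pmf1*, of the kinetochore, differed by 1.001 with no *Slug*+/+ array above background, or at least 1.15-fold. *Cenpq*, of the inner kinetochore, went the other way, with values of 3.65, 2.50 and 2.33 in *Slug*-/- SCs, against 3.96, 4.07 and 4.13 in *Slug*+/+ SCs, a difference of -1.23. *Kifc1* (1.32), *Stmn1* (1.08) and *Arhgap11a* (1.07), named after their values were seen, complete the calls. The groups of *Kifc1* overlapped, since its *Slug*-/- replicate 3 (2.61, under background) lay below its *Slug*+/+ replicate 2 (3.07). Of *Arhgap11a*, only *Slug*-/- replicate 2 was above background, and no bound above 1-fold was reached. *Fbxo5*, the inhibitor of the anaphase-promoting complex, differed by 0.65 and *Wee1*, the kinase that restrains CDK1, by 1.49 with groups that overlapped. The adjusted p from limma was at least 0.792 in these lists.

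Other values moved with the genotype alongside these genes. *Myog*, which marks SCs that begin to differentiate, had values of 8.43, 7.03 and 8.27 in *Slug*-/- SCs, against 6.03, 5.15 and 5.68 in *Slug*+/+ SCs, differing by 2.29 (standard error 0.40, adjusted p = 0.619 from limma). *Slug*-/- replicate 2 was again the lowest of its group. Of the 10 markers of activated and differentiating cells, *Myog* included, 6 were positive, with a median of 0.16, and *Myog* was the one with an unadjusted p under 0.05. Of the 10, 8 were above background on every array and 1 on none, with a mean level of 4.38 to 5.05 in *Slug*-/- and 4.17 to 4.55 in *Slug*+/+ SCs. Without *Myog* it was 4.09 to 4.68 in *Slug*-/- and 4.07 to 4.39 in *Slug*+/+ SCs. Markers of Schwann cells had a mean level of 3.41 to 4.11 in *Slug*-/- and 3.15 to 3.39 in *Slug*+/+ SCs over 6 of 8 genes, which do not overlap, with 3 of the 6 above background on every array. Without *Cdh19*, left out after its values were seen, the other 5 overlapped, at 3.55 to 3.91 in *Slug*-/- and 3.13 to 3.64 in *Slug*+/+ SCs. Of these 5, 4 were positive, with a median of 0.26, and *Ngfr* (0.69) had an unadjusted p under 0.05 in limma. *Sox10*, a defining marker, was the one below 0, at -0.06. The part of *Myog* and of these marker lists in the result was not tested. The mean levels of the other measured marker lists overlapped between genotypes. Within them, *Lum* (1.05), *Tagln* (0.87) and *Emcn* (0.74, under background throughout) were higher at an unadjusted p of 0.05 in limma. *Cd68* (-0.96), *Cd248* (-0.87), *Des* (-0.69) and *Atp2a1* (-0.66) were lower at it. *Lum* alone of these passed the call. Myofibre markers had a mean level of 3.56 to 3.88 in *Slug*-/- and 3.66 to 3.82 in *Slug*+/+ SCs, and blood markers 2.55 to 2.92 in *Slug*-/- and 2.81 to 2.97 in *Slug*+/+ SCs. Endothelial markers had 3.57 to 4.01 in *Slug*-/- and 3.50 to 3.84 in *Slug*+/+ SCs, and mural markers 5.32 to 5.60 in *Slug*-/- and 4.91 to 5.40 in *Slug*+/+ SCs. Markers of fibro-adipogenic progenitors had 6.02 to 6.38 in *Slug*-/- and 5.99 to 6.26 in *Slug*+/+ SCs. Of 12 blood markers, 8 were at or under background on every array and 2 above it on every array. Mural markers were above background on every array for 8 of 9 genes, and markers of fibro-adipogenic progenitors for 7 of 10. Endothelial markers were so for 4 of 10 and myofibre markers for 5 of 12. Which cells this signal came from was not tested.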

How the data were processed

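Values were deposited by the authors as log2 expression values, 1 for each of 41345 probe sets and array, made in Affymetrix's Gene Expression Console by an algorithm that the sources used here do not name, and 0 sample columns were left unused. Arrays give no read depth, and their number limits the precision.

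Genotypes and replicates came from the sample labels, which call the replicates biological. Probe sets with 1 symbol in the platform's annotation were used (23521), and the brightest was taken for the 1082 genes with more than 1. The genotypes were set against each other by lmFit and eBayes of limma 3.58.1 in R 4.3.3, with Benjamini-Hochberg adjustment over 22180 genes. No filter on dim genes was applied. The fit was tested on simulated data. The replicate numbers were checked for pairing: deviations of same-numbered arrays from their genotype means correlated at 0.03, 0.02 and 0.13. Arrays with different numbers gave -0.08 to 0.05. Same-numbered arrays were not treated as pairs in the main fit, and a link between those numbered 3 was not tested.

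The genes, roles, wider lists and markers were chosen with earlier results of these data known, so no p was taken over a list. By the rule for named genes, values on every array are given for called genes, for the smallest p of each role and for 10 well-known genes fixed beside it (*Mki67*, *Cdk1*, *Ccnb1*, *Ccna2*, *Plk1*, *Aurkb*, *Top2a*, *Cdc20*, *Birc5* and *Foxm1*), and up to 3 genes with the smallest p of each wider list may be named. Of erythroid markers, 0 were measured. Alternatives were quantile normalization, subtraction of array medians, averaging the probe sets of a gene, a filter at background, raising dim values to background, an intensity trend, an ordinary unpaired fit, the replicate number as a block, array weights, a fold of 1.5 and each array left out.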

Additional observations from a re-analysis of the deposited data

How the results depend on the processing

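The count of 7 called genes was 7 with quantile normalization, array medians subtracted, averaged probe sets, an intensity trend and the replicate number as a block, and 6 with array weights or with only genes above background. With dim values raised to background, the count fell to 2, where differences between dim values are removed by construction. With an ordinary unpaired fit it was 4, and with a fold of 1.5 it was 18. Leaving out each array in turn gave 5 to 10. The count called lower stayed 0 in each setting run, those that leave out an array included. The median difference of 0.41 was 0.64 with only genes above background, where 28 genes of the group remain. That filter uses the mean of both genotypes, and 6 of the 28, 4 of them called, had a *Slug*+/+ mean at or under background and passed through their *Slug*-/- arrays. The median was 0.11 with values raised to background, and 0.35 to 0.44 without each array in turn. Over all genes, the 199 calls became 97 with values raised to background, 99 with an ordinary unpaired fit, and 248 to 391 without each array in turn. Genes past an adjusted p of 0.05 numbered 0 to 1 without each array in turn, the 1 arising without *Slug*+/+ replicate 2, and it is none of the 58.

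Differences near 0 changed sign. *Cdc25c* was at 0.016 with quantile normalization and 0.042 with array medians subtracted, and *Kif14* was at 0.030 with quantile normalization, 0.041 with array medians subtracted and 0.031 with array weights. Without each array in turn, the difference ranged from -0.16 to 0.11 for *Cdc25c*, from -0.084 to 0.22 for *Nek2*, from -0.44 to 0.40 for *Bub1b*, from -0.31 to 0.022 for *Espl1*, from -0.12 to 0.14 for *Cenpa*, from -0.073 to 0.28 for *Cenpe*, from -0.37 to 0.22 for *Ndc80*, from -0.29 to 0.69 for *Spc24*, from -0.19 to 0.034 for *Spc25*, from -0.081 to 0.20 for *Kif2c*, from -0.24 to 0.16 for *Kif14*, from -0.030 to 0.26 for *Hmmr*, from -0.25 to 0.42 for *Ect2*, from -0.41 to 0.082 for *Smc2* and from -0.46 to 0.30 for *Smc4*. None of these genes passed the call in any of those fits. With values raised to background, 15 genes were at 0 by construction. Of the 58 genes, 35 kept their sign in all alternatives, and of 840 single values 769 kept their side of the call and their sign.

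The replicate number as a block gave 7 called genes, the same 7, and 225 calls over all genes. Same-numbered deviations correlated at 0.03, 0.02 and 0.13, against -0.08 to 0.05 for arrays with different numbers. The 0.13 belongs to the arrays numbered 3, which also had the highest correlation of any pair over all genes, 0.966. Whether these arrays share more than a number was not tested.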
